A study of Nothobranchius furzeri with 20 samples.

Results

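In turquoise killifish liver (Nothobranchius furzeri), 11 genes of 26739 met a rule for lower levels at 27 weeks than at 9 weeks. Each of these genes was lower in all 5 libraries from fish of 27 weeks than in all 15 libraries from fish of 9 weeks. They were chosen by their measured values. On the scale log2(CPM + 0.5), where CPM is a gene's count relative to the TMM-scaled total of its library, the highest 27-week library had to lie below the lowest 9-week library. The median at 27 weeks also had to lie 1 or more below that of the 9-week 1% group, whose median had to reach 1 CPM. The age difference of these genes is therefore a description of how they were selected and carries no test. The rule did not compare the 9-week dose groups with each other, but it used the values of all 3, since every 9-week library had to lie above the 27-week maximum.

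The fish were males of strain MZM-04/10p and all had been treated with rotenone. Doses were stated as a share of the LC50, the concentration lethal to 50% of animals in a toxicity test. The groups were 9 weeks at 0.1%, 9 weeks at 1%, 9 weeks at 10% and 27 weeks at 1% of the LC50, with 5 libraries in each. No analysed group was untreated and fish of 27 weeks were measured only at 1%, so age and an age-dependent response to rotenone cannot be told apart. The 0.1% libraries came in a table of their own, so that in comparisons with 0.1% the dose and the table cannot be told apart. MZM-04/10p is a strain derived from wild fish.

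Rotenone blocks complex I of the mitochondrial respiratory chain, the enzyme that passes electrons from NADH to ubiquinone. The liver is rich in mitochondria and carries out much of the body's metabolism and detoxification, and the killifish is a short-lived vertebrate used to study ageing. The deposited identifiers are not paired with gene names and 0 of them matched the RefSeq gene table, so the function of the 11 genes is not given here. Likewise the liver identity of the libraries could not be checked against marker genes. The 7 genes that met the naming rule are called by their identifiers and the other 4 by their lengths in bases, which were recovered from the deposited tables. What part of a gene such a length covers is not stated in the sources used here. In these bulk samples, fewer cells of a type that expresses a gene and less RNA per cell cannot be told apart.

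Library totals ran from 23546777 to 33870946 counts. Of the 9-week 1% libraries, replicate 5 stood apart, with a TMM factor of 0.652 where the other 19 lay between 0.805 and 1.37. It was the highest library of its group for 36.4% of all genes tested and for 6 of the 11 genes. Dose differences and shares of counts that rest on it are therefore given with and without it. The labels do not state whether libraries came from separate fish, so p-values reflect only the variation among the libraries, which may be technical.

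Of 13359 genes with a 9-week 1% median of 1 CPM or more, 54 had all 27-week libraries below all 9-week libraries, or 0.404%, and 31 had them above, or 0.232%. The further condition on the medians left the 11 genes (0.0823%), against 16 genes (0.12%) under the mirrored rule. All 11 passed the filter on low counts. The gap between the lowest 9-week and the highest 27-week library was widest for Nfu_g_1_015739, at 0.82 on the log2 scale, and narrowest for Nfu_g_1_005359, at 0.02. The nearest gene outside that limit had a gap of -0.05, with 1.62 CPM in its highest 27-week library and 1.55 CPM in its lowest 9-week library. On the median condition, the gene of 2726 bases lay just inside with a difference of 1.02, and the nearest gene outside had 0.91. The lowest 9-week 1% median was 1.00 CPM, in the gene of 849 bases. No gene failed on the CPM minimum alone.

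**Figure D1:**
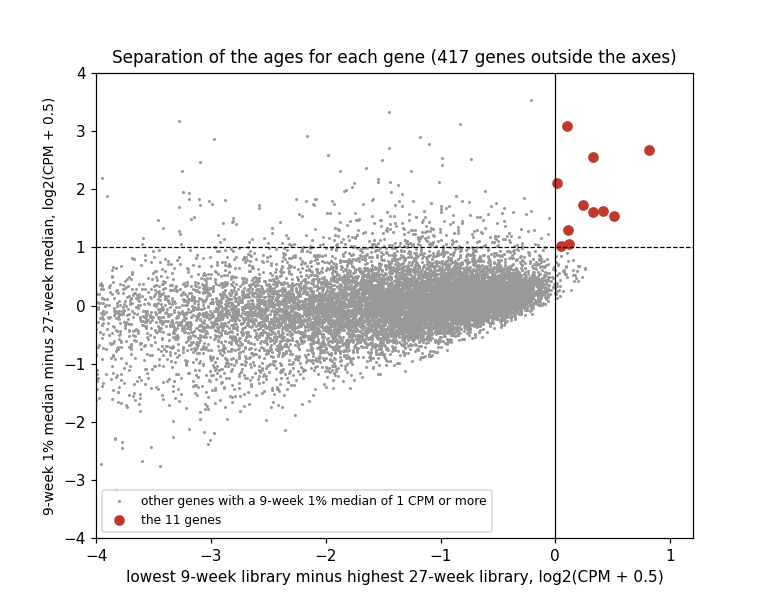
Each point is a gene with a 9-week 1% median of 1 CPM or more. The x axis gives the lowest 9-week library minus the highest 27-week library and the y axis the 9-week 1% median minus the 27-week median, both in log2(CPM + 0.5). The 11 genes (red) lie right of 0 and above 1, and Nfu_g_1_015739 lies farthest right, at 0.82.

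The gaps were set beside counting error. Exact Poisson intervals (95%, for counting error only) of the facing libraries did not overlap for 4 genes, namely Nfu_g_1_015739, Nfu_g_1_009314, Nfu_g_1_007059 and the gene of 3399 bases. For the other 7 genes they overlapped. The facing libraries are the values that the rule itself compared, and no share over other genes is given. Neither overlap nor its absence is therefore a test of the difference. Neither places a gap within or beyond counting error. Nfu_g_1_005359, for example, had 2.08 CPM from 88 counts in replicate 5 at 27 weeks (interval 1.67 to 2.56 CPM) and 2.11 CPM from 60 counts in replicate 3 at 10% (1.61 to 2.71 CPM). The facing library was in the 9-week 1% group for 8 of the 11 genes, in the 10% group for 2 and in the 0.1% group for 1. That group also had the widest spread over all genes tested. Their median SD of log2(CPM + 0.5) was 0.51 at 1%, 0.37 at 0.1% and 0.26 at 10%. No share over all genes is given for the facing library, so its place only describes the set. Replicate 1 of the 9-week 1% group was the lowest of the 15 for 4 genes, and replicate 5 of that group for 0. At 27 weeks, replicate 5 was the highest library for 4 genes and replicates 1 and 4 for 3 each.

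Together the 11 genes took 0.0108% ± 0.0010 of all counts at 27 weeks (mean ± SD, n = 5). At 9 weeks they took 0.0498% ± 0.0080 at 0.1%, 0.0395% ± 0.0180 at 1% and 0.0651% ± 0.0116 at 10% (n = 5 each). In the 9-week 1% group 4 libraries held 0.0293% to 0.0361% and replicate 5 held 0.0713%. Without that library the group's mean was 0.0315%.

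**Figure D2:**
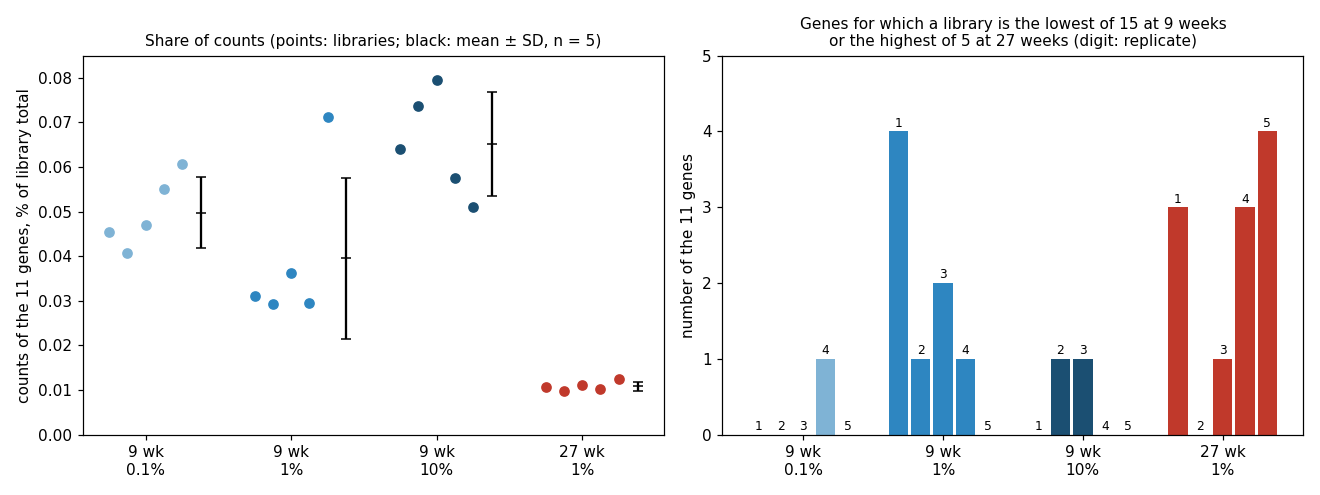
The left panel gives the counts of the 11 genes as a percentage of each library's total, with the mean and SD of each group in black; the 27-week libraries sit between 0.00985% and 0.0124%, below the others. The right panel counts, for each library, the genes for which it was the lowest of 15 at 9 weeks (blue) or the highest of 5 at 27 weeks (red); most of the blue bars belong to the 1% group.

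Nfu_g_1_015739, a gene of 6227 bases, had the widest gap. At 27 weeks its level was 3.40, 3.11, 2.98, 2.38 and 2.81 CPM in replicates 1 to 5. In the 9-week 1% libraries it was 22.6, 17.34, 6.37, 21.7 and 27.4 CPM. At 0.1% it was 36.6, 26.2, 35.2, 17.8 and 76.8 CPM, and at 10% it was 164, 166, 104, 80.1 and 47.3 CPM. The 27-week libraries were thus alike, while the 9-week libraries spread widely and all 5 at 10% stood above all 5 at 1%. From 1% to 10% the gene rose from a mean of 19.1 ± 7.96 to 112 ± 52.3 CPM (SD over 5 libraries each). On the log2 scale this rise was 2.56 ± 0.41 (SE; edgeR adjusted p = 0.000232). Without replicate 5 of the 1% group this change was 2.71.

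Nfu_g_1_009314 had a recovered length of 10567 bases. Its level at 27 weeks was 4.92, 4.44, 2.59, 3.81 and 5.64 CPM, and in the 9-week 1% libraries it was 7.68, 14.8, 22.0, 16.5 and 8.40 CPM. At 0.1% it stood at 15.6, 18.6, 33.3, 31.5 and 22.9 CPM, and at 10% at 19.9, 52.8, 44.8, 21.34 and 33.0 CPM. The 1% group was the lowest of the 9-week groups by its median, although it overlapped both others. The rise from 1% to 10% was 1.31 ± 0.33 on the log2 scale (SE; edgeR adjusted p = 0.00774), with 3 of 5 libraries at 10% above all at 1%.

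Nfu_g_1_023370 differed between doses in both directions around 1%. It had 2.64, 4.44, 3.36, 6.303 and 3.45 CPM at 27 weeks, while the 9-week 1% libraries had 8.07, 10.7, 37.9, 30.5 and 22.7 CPM. At 0.1% the libraries held 127, 97.5, 84.3, 33.8 and 118 CPM, and at 10% they held 48.8, 52.4, 43.9, 67.9 and 48.8 CPM. All 5 libraries at 10% lay above all those at 1%, and so did those at 0.1% apart from replicate 4, which lay below the highest of them. From 0.1% to 1% the gene fell by 2.07 on the log2 scale (SE 0.39; edgeR adjusted p = 0.00102), and from 1% to 10% it rose by 1.25 ± 0.38 (SE; edgeR adjusted p = 0.0235). The rise ended as a call without replicate 2 at 1% (adjusted p = 0.0550) or replicate 4 at 10% (0.0566).

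The gene of 3399 bases was also lowest at 1% among the 9-week groups by its median, at 26.8 CPM, against 34.2 CPM at 0.1% and 68.7 CPM at 10%. It ranged from 8.05 to 11.2 CPM at 27 weeks and from 14.2 to 69.2 CPM at 1%, where replicate 5 was highest. Its libraries at 10%, between 61.7 and 87.8 CPM, all lay above those at 0.1%, between 18.1 and 57.7 CPM. The rise from 1% to 10% was 1.17 ± 0.34 on the log2 scale (SE; edgeR adjusted p = 0.0199), and 1.65 without replicate 5 at 1%. Although the libraries at 0.1% and 10% did not overlap, the difference of 1.12 ± 0.34 between them was not called (SE; edgeR adjusted p = 0.334).

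For Nfu_g_1_005359 and Nfu_g_1_000932 the 9-week 1% group was instead the highest. Nfu_g_1_005359, of 6094 bases, had 12.7, 9.15, 3.53, 3.08 and 10.2 CPM in the 9-week 1% libraries. At 27 weeks it had 1.92, 1.75, 1.45, 1.28 and 2.08 CPM. The other young groups came close to the old one, with 3.67, 2.396, 2.46, 2.87 and 2.88 CPM at 0.1% and 5.77, 2.34, 2.11, 2.21 and 3.70 CPM at 10%. It rose by 1.43 ± 0.36 on the log2 scale from 0.1% to 1% (SE; edgeR adjusted p = 0.00938) and fell by 1.26 from 1% to 10% (SE 0.36; edgeR adjusted p = 0.0180). In each comparison 3 of 5 libraries stood outside the range of the other group. The fall was not called without replicate 1 at 1% (adjusted p = 0.0542), replicate 2 at 10% (0.0506) or replicate 4 at 10% (0.0514).

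Nfu_g_1_000932, of 978 bases, had the smallest ratio of medians to 27 weeks when set against 1% and 10%. Its 27-week libraries held 51.6, 43.6, 46.8, 45.9 and 44.9 CPM, against 95.8, 98.2, 75.4, 96.3 and 239 CPM in young fish given 1%. At 0.1% they held 75.04, 87.8, 78.6, 77.6 and 65.5 CPM, and at 10% they held 76.6, 56.1, 86.5, 58.4 and 59.8 CPM. Replicate 5 at 1% was far above the rest of its group. From 1% to 10% the gene fell by 0.84 on the log2 scale (SE 0.24; edgeR adjusted p = 0.0173), with 3 of 5 libraries at 10% below all at 1%. Without that replicate the log2 change was -0.45 (edgeR adjusted p = 0.0263).

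Nfu_g_1_007059, of 10974 bases, had 13.9, 13.5, 18.4, 11.29 and 19.6 CPM at 27 weeks and 28.6, 43.6, 29.1, 26.7 and 27.5 CPM in the young fish at 0.1%. At 1% it had 51.2, 46.9, 44.3 and 199 CPM in replicates 2 to 5, and replicate 1 was lower, with 907 counts (Poisson interval 21.8 to 24.9 CPM), while at 10% it had 81.2, 77.9, 144, 56.7 and 64.6 CPM. Its 10% libraries all lay above its 0.1% libraries, and the 1% group spanned both. The rise of 1.23 ± 0.42 on the log2 scale from 0.1% to 1% just passed (SE; edgeR adjusted p = 0.0459). It rested on replicate 5 at 1%, without which the change was 0.40 (edgeR adjusted p = 0.314), and it ended under 18 of 25 alternatives. From 0.1% to 10% the change was 1.45 ± 0.42 and was not called (SE; edgeR adjusted p = 0.298). This larger step passed without replicate 5 of the 1% group in the fit (log2 change 1.43; edgeR adjusted p = 0.0305).

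Nfu_g_1_018482, with a recovered length of 771 bases, held the most counts of the set over all libraries. At 27 weeks it had 13.9, 4.90, 8.05, 8.04 and 7.06 CPM. At 0.1% it had 166, 126, 210.0, 138 and 218 CPM and at 10% it had 182, 269, 309, 224 and 162 CPM. The 9-week 1% libraries held 46.0, 71.9, 98.4, 14.96 and 463 CPM, so that replicate 4 came close to the 27-week maximum while replicate 5 exceeded every other library. Neither step next to 1% was called with all libraries, with log2 changes of -0.31 ± 0.57 from 0.1% to 1% and 0.73 ± 0.57 from 1% to 10% (SE; edgeR adjusted p = 0.743 and 0.393). Without replicate 5 both passed, at -1.57 (edgeR adjusted p = 0.0106) and 1.97 (edgeR adjusted p = 0.00198).

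The remaining genes passed in no dose comparison. The gene of 444 bases ranged from 0.118 to 0.763 CPM at 27 weeks and from 1.30 to 60.2 CPM at 9 weeks. Its 0.1% libraries held 2.23, 60.2, 12.5, 3.26 and 2.25 CPM, and its 1% libraries 16.8, 1.30, 1.91, 2.35 and 15.9 CPM. The gene of 849 bases held 0.371, 11.1, 1.86, 0.245 and 0.457 CPM at 0.1% and 13.28, 0.419, 1.00, 3.74 and 0.484 CPM at 1%. Both genes were thus highest in replicate 2 at 0.1% and in replicate 1 at 1%. At 10% the former ranged from 3.54 to 11.4 CPM and the latter from 0.685 to 8.90 CPM. At 27 weeks the gene of 849 bases had between 0 and 8 counts a library. The library without a count allows up to 0.120 CPM (3 counts), and folds of this gene against 27 weeks depend on few reads. The gene of 2726 bases ranged from 4.44 to 6.68 CPM at 27 weeks, and its 9-week medians were 14.8 CPM at 0.1%, 10.6 CPM at 1% and 13.6 CPM at 10%.

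**Figure D3:**
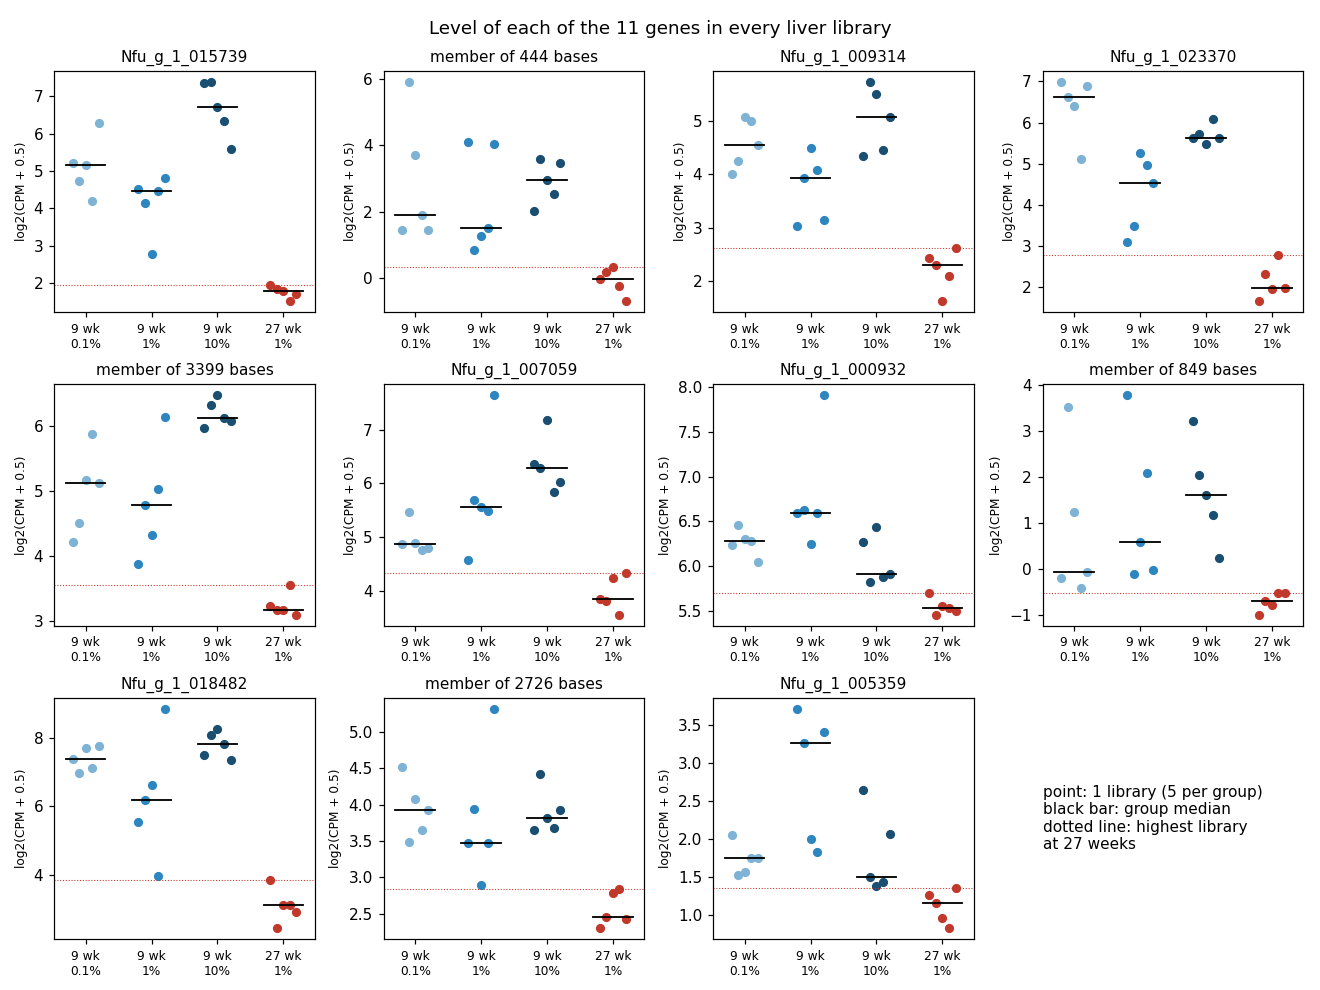
Each panel shows 1 gene, with log2(CPM + 0.5) on the y axis and the groups by age and dose on the x axis; points are libraries, black bars are group medians and the dotted line marks the highest 27-week library. The y axes differ between panels. Every 9-week point lies above the dotted line, closely so for Nfu_g_1_005359, and the 9-week 1% points spread widely.

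The size of the difference from 27 weeks depended on the 9-week group it was set against. Only the 9-week 1% group shared the dose of the 27-week fish. Against 10% and 0.1%, age and dose changed together and cannot be told apart, and against 0.1% the table changed as well. As a ratio of median CPM to that at 27 weeks, the 10% group ranged over the 11 genes from 1.30 (Nfu_g_1_000932) to 34.97 (Nfu_g_1_015739). The 1% group ranged from 2.10 (Nfu_g_1_000932) to 8.94 (Nfu_g_1_018482), and the 0.1% group from 1.64 (Nfu_g_1_005359) to 28.3 (Nfu_g_1_023370). In the fit, 11 of the 11 genes were called lower at 27 weeks than at 9 weeks and 1%, where 1.14% of 16516 genes tested were lower. Against 10% there were 9 (5.64% of all genes) and against 0.1% there were 8 (5.46%). These comparisons share the 27-week libraries and were used by the rule, so the counts are given for completeness. Over all omissions of single libraries, 5 to 11 of the 11 were called against 1%, where 0.0719% to 2.24% of all genes were lower. Without replicate 5 of the 9-week 1% group the number was 8, and the share of all genes in that fit is not given here. With only both 1% groups in the fit, 1 of the 11 was called against 1% (0.0258% of all genes), limma voom called 7 (0.388%), and 5 were called without replicate 2 (0.102%) or without replicate 3 (0.0719%) at 27 weeks.

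Between doses at 9 weeks, 6 of the 11 genes passed from 1% to 10% (21.7% of all genes tested did). Of these 4 rose (8.03%) and 2 fell (13.6%), and for 2 of them all libraries at 10% lay above all at 1% (6.62%). From 0.1% to 1%, 3 passed (19.4%), of which 2 rose (11.6%) and 1 fell (7.82%). From 0.1% to 10%, 0 passed by edgeR, where 0.0484% of all genes did (0.0182% higher and 0.0303% lower), although 4 of the 11 and 1079 of all genes tested had an unadjusted p below 0.05. In that comparison 2 of the 11 had all libraries at 10% above all at 0.1% (0.708%).

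Some counts differed between tools. From 0.1% to 10%, DESeq2 called 1 of the 11 higher (0.134% of its genes) and 0 lower (0.711%); the gene was Nfu_g_1_015739 (log2 change 1.52; DESeq2 adjusted p = 0.0252). Limma voom called 0 there (0.0121% higher, 0.0182% lower), as did edgeR on only those groups (0.0127% and 0.0445%). From 0.1% to 1%, DESeq2 called 3 higher (13.2%) and 2 lower (11.7%), limma voom 1 higher (9.94%) and 1 lower (6.88%), and edgeR on only those groups 0 higher (4.28%) and 1 lower (2.8%). RLE factors and the omission of the filter each gave 1 higher (10.9% and 7.64%). From 1% to 10%, edgeR on only those groups called 4 higher (6.42%) and 0 lower (9.3%). There DESeq2 called 4 higher (10.8%) and 2 lower (2683 of 16459 genes), and limma voom 4 higher (8.08%) and 2 lower (1862 of 16516 genes), the same counts as the main test.

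In all, 7 of the 11 genes passed in 1 or more dose comparisons, against 26.2% of all genes tested. Both steps next to 1% contain the same 9-week 1% libraries, and the rule used the values of all 9-week groups. The counts are therefore a description of the set.

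The called genes lay on both sides of 0 in each step next to 1%. The median log2 change from 1% to 10% was 0.22 over the 11 genes (range -1.26 to 2.56) and -0.01 over all genes tested. From 0.1% to 1% it was -0.05 (range -2.07 to 1.43) against -0.01, and from 0.1% to 10% it was 0.34 (range -1.08 to 1.55) against -0.03. Without replicate 5 of the 9-week 1% group the first of these medians was 1.03 and the second -0.55. The medians over all genes tested in that fit are not given here, and those above come from a different fit. In that fit 6 of the 11 genes rose from 1% to 10% (9.04% of all genes tested did) and 2 fell (2571 of 16766 genes did). From 0.1% to 1%, 1 rose (11.1%) and 2 fell (8.98%), and from 0.1% to 10%, 1 rose (0.0358%) and 0 fell (0.101%). By their medians the 1% group was the lowest 9-week group for 7 genes and the highest for 2. For the 10% group these numbers were 2 and 7. The share of all genes tested with such an order is not given here, so these numbers only describe the set.

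**Figure D4:**
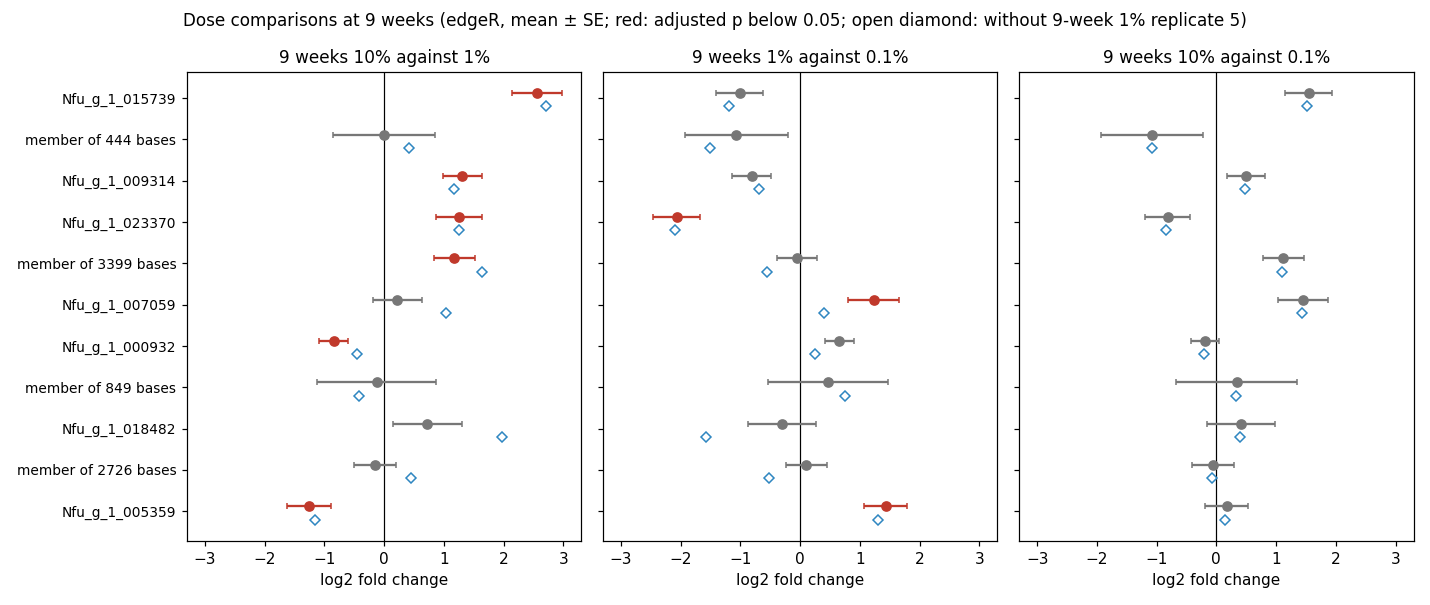
Log2 fold changes of the 11 genes between doses at 9 weeks (x axis; edgeR, ± SE), ordered by the width of the gap between ages, with red points at an adjusted p below 0.05 and open diamonds for the fit without replicate 5 of the 9-week 1% group. Red points lie on both sides of 0 in the left and middle panels and are absent from the right panel.

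For these genes the median spread between libraries was larger in each 9-week group than at 27 weeks. At 27 weeks it was near that of all genes tested. In the 9-week 1% group the median SD of log2(CPM + 0.5) was 0.92 over the 11 genes and 0.51 over all genes tested, and 11 of the 11 exceeded the latter. At 10% the medians were 0.51 and 0.26, and at 0.1% they were 0.46 and 0.37. At 27 weeks they were 0.24 and 0.26, with 5 of the 11 above. Not every gene followed these medians. For Nfu_g_1_018482 the SD was 0.35 at 0.1%, 1.78 at 9 weeks and 1%, and 0.39 at 10%, against 0.51 at 27 weeks. The 0.5 added to CPM also narrows spreads at low levels, as in the gene of 849 bases at 27 weeks (SD 0.19). The rule used these same values, so the spreads are a description. Those at 9 weeks and 1% include replicate 5 and are not given without it.

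Levels between genes were compared per length. Of all genes tested, 15480 had a recovered length, with a median of 2653 bases. The 11 genes ranged from 444 to 10974 bases, with a median of 2726. Percentiles are ranks among these 15480 genes. Genes whose deposited values were too low in every library had no recovered length and are missing from the ranking. At 9 weeks and 0.1%, Nfu_g_1_018482 stood at a median of 215 CPM per kilobase, at percentile 97.9. At 27 weeks it stood at 10.4 CPM per kilobase, at percentile 78.8. Nfu_g_1_000932 moved little in rank, from percentile 96.0 at 0.1% to 94.0 at 27 weeks. Nfu_g_1_015739 stood at percentile 86.6 at 10%, 66.1 at 0.1%, 52.9 at 9 weeks and 1%, and 13.7 at 27 weeks. The set thus held both abundant and scarce transcripts at 27 weeks, down to percentile 2.15 for the gene of 849 bases.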

How the data were processed

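Liver RNA was sequenced from male killifish after Illumina TruSeq v2 library preparation, per the labels' protocols. Per the submitters' processing notes, featureCounts 1.4.6-p4, STAR 2.4.1d and CASAVA 1.8.2 were used. Neither the genome build nor the strand setting is stated (not given in the sources used here). Gene-level read counts, not normalized, were deposited by the authors as 2 tables, which were joined by identifier. The deposited tables labelled RPKM were treated as a score, because their divisors were library totals repeated down the rows with a period of 35, and they served only to recover the lengths of 16472 genes; 59.5% of these were within 0.1 of a whole base. Another 10 columns belonged to samples not analysed here.

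Libraries were grouped by the labels' age and dose. Genes were filtered with filterByExpr, scaled by TMM and tested with edgeR 4.0.16 (R 4.3.3) by the quasi-likelihood test with 4 group means over all 20 libraries. P-values were two-sided and Benjamini-Hochberg adjusted over 16516 genes, with a threshold of 0.05. The SE of an edgeR log2 change was derived from the test, as the absolute change divided by the square root of its F statistic. It is not a standard error reported by the model. DESeq2 1.42.0 and limma 3.58.1 (voom), RLE factors, no filter, fits on fewer groups and the omission of each library were alternatives. Of the scripts, the edgeR fit of the dose comparisons was tested on simulated data. The rule that chose the genes was not part of that simulation. Library totals of 23546777 to 33870946 counts set the precision, and Poisson intervals and floors cover counting error only.

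Identifiers were named as follows: the gene with the widest gap between ages, the gene with the highest 9-week median among the rest, and per dose comparison at most 2 called genes that rose and 2 that fell, by size. This named 7 genes. The members and lists were chosen with earlier results of these data known. Marker lists for cell types were not tested, since no identifier could be named.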

Additional observations from a re-analysis of the deposited data

Results flagged for a closer look

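The 48 groups of 5 values examined were levels of single genes, on the log2(CPM + 0.5) scale, and shares of counts in percent. Of these, 3 held a library far from the others (a gap to the nearest library above Dixon's critical share of the group's range, given below as a ratio), and chance alone flags about 1 in 20 such groups. Nfu_g_1_007059 had 43.6 CPM in replicate 2 of the 9-week 0.1% group (ratio 0.822 on the log2 scale). Nfu_g_1_000932 had 239 CPM in replicate 5 of the 9-week 1% group (ratio 0.771 on the log2 scale). The share of counts taken by the 11 genes was 0.0713% in that same replicate 5 (ratio 0.837 on the percent scale). That library had a TMM factor of 0.652. The share was computed from unscaled counts, so this factor does not enter it. The factor does enter the CPM of Nfu_g_1_000932, and its part there was not tested.
On the CPM scale, chosen after seeing the data, 10 of the 44 groups of gene levels passed in place of 2, among them Nfu_g_1_018482 in replicate 5 at 1% (ratio 0.814) and the gene of 849 bases in replicate 2 at 0.1% (ratio 0.852).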

How the results depend on the processing

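The number of genes meeting the rule was 11, and it was 37 with a median difference of 0.5, 4 with a difference of 2, and 26 with the 15 libraries of the first table (10 of the 11 shared). Leaving out single libraries gave 10 to 20, with 18 and 20 without replicates 3 and 4 of the 9-week 1% group and 18 and 17 without replicates 1 and 4 at 27 weeks. Scaling by library totals alone gave 8, of which 7 were among the 11. TMM factors over all genes, an alternative chosen after seeing the data, gave 10.

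From 1% to 10%, 0 genes fell with only the 2 groups compared, and 1 to 2 when single libraries were left out (from 10.4% of all genes to 2571 of 16766). From 0.1% to 1%, 1 gene rose under limma voom, RLE factors (10.9% of all genes) or no filter (7.64%), 0 with only the 2 groups, and 1 to 3 when single libraries were left out (8.32% to 12.6%); 2 fell under DESeq2, and 1 to 2 when single libraries were left out (5.31% to 8.98%). From 0.1% to 10%, 1 rose under DESeq2, and 0 to 1 when single libraries were left out (0.012% to 0.0358%). Lower at 27 weeks than at 9 weeks and 1% were 7 genes under limma voom, 1 with only the 2 groups, and 5 to 11 when single libraries were left out (0.0719% to 2.24%). Without the gene with the most counts, the 9-week share of counts was 0.0327% at 0.1%, 0.0285% at 1% and 0.0433% at 10%. At 27 weeks it was 0.00990%. With only the 2 groups, Nfu_g_1_005359 (adjusted p = 0.0819 from 1% to 10%, 0.0599 from 0.1% to 1%) and Nfu_g_1_000932 (0.0902) were not called by edgeR. The cause of these differences was not tested. Nfu_g_1_015739, Nfu_g_1_009314 and the gene of 3399 bases, from 1% to 10%, and Nfu_g_1_023370, from 0.1% to 1%, were called under all alternatives run. No called dose difference changed sign. Of the 33 dose differences of single genes, 12 changed sign under 1 or more alternatives, and 0 of these were called in the main test. For example, the gene of 2726 bases went from -0.16 to 0.44 (1% to 10%) and from 0.10 to -0.52 (0.1% to 1%) without replicate 5 of the 9-week 1% group, and the gene of 444 bases from -1.08 to 0.22 (0.1% to 10%) under limma voom. No paired analysis was possible because the replicate numbers were given in accession order and the labels link no samples across groups. Genes with few counts, such as that of 849 bases, are limited by depth.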
